A study of Mus musculus with 6 samples.

Results

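Shox2, Alx1, Alx4, Prrx1 and Prrx2 are paired-like homeobox genes, matched here by symbol to 5 of the 56691 gene identifiers counted in bulk RNA-seq of the mouse secondary palate. All 5 were among the 15673 genes with enough reads to be tested. The libraries came from palatal shelves of C57BL/6J embryos at E14.0, microdissected into an anterior region (3 libraries) and a posterior region (3 libraries), with no genetic change or treatment named in either group. The labels do not say how many embryos gave each library, so that p-values measure only the spread between these libraries. The comparison of the regions asks which genes distinguish the anterior from the posterior palate.

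Paired-like homeobox genes encode transcription factors whose homeodomain binds short DNA motifs built around TAAT, as monomers or as pairs on an inverted repeat of that core. In the head they act in the mesenchyme derived from the cranial neural crest, which builds most of the palatal shelves. Shox2 is required for growth of the anterior shelf, Alx1 and Alx4 for the frontonasal skeleton and the skull vault, and Prrx1 and Prrx2 act in part redundantly in craniofacial and limb mesenchyme. Cleft palate occurs in mice that lack Shox2 or Prrx1.

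The libraries held from 11378736 to 15172733 counts on genes, and a count of 0 in a library allowed a level of up to 0.198 to 0.264 CPM (counts scaled to a common library size), for counting error only. Markers of mesenchyme (8 genes, 11250 to 12414 summed CPM in anterior and 15632 to 26017 in posterior libraries) and of epithelium (7 genes, 836.7 to 1428 summed CPM) were present in every library. Chondrocyte markers (4 genes) summed to 128 to 171 CPM in anterior and 516 to 658 CPM in posterior libraries. Of these markers, 2 (Col2a1 and Col9a1) were called higher in the posterior palate, beside 4.87% of all genes tested. The part of these markers in the results below was not tested. Posterior replicates 2 and 3 stood apart, with 6.12% and 5.94% of reads mapping to several places against 8.45% to 8.77% in the other 4 libraries, and with 0.973% and 1.14% of counts on mitochondrial genes against 2.70% to 2.97%. Because both are posterior, this split cannot be told apart from region within them, and results are given below also for the anterior libraries against posterior replicate 1 alone, a comparison chosen after seeing the data in which the lone library is assumed to vary like the anterior ones.

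Shox2 and Alx1 were detected in the posterior palate at a few percent of their anterior level, Prrx1 was present in both regions but higher in the anterior, Alx4 was lower in the posterior libraries by an amount that missed the threshold, and Prrx2 had overlapping levels in both. In edgeR's quasi-likelihood test, 3 of the 5 genes passed an adjusted p of 0.05 toward the anterior palate and none toward the posterior, where 7.46% of all genes tested passed in either direction, 2.59% toward the anterior and 4.87% toward the posterior. The median log2 fold change of the 5 genes, posterior over anterior, was -1.34, beside -0.0040 over all genes tested. In 4 of the 5 genes every anterior library lay above every posterior library, which 13.4% of all genes tested also did, and 28% of all genes did not overlap between the regions in either direction. In bulk tissue, fewer expressing cells and less RNA per cell cannot be told apart.

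**Figure D1:**
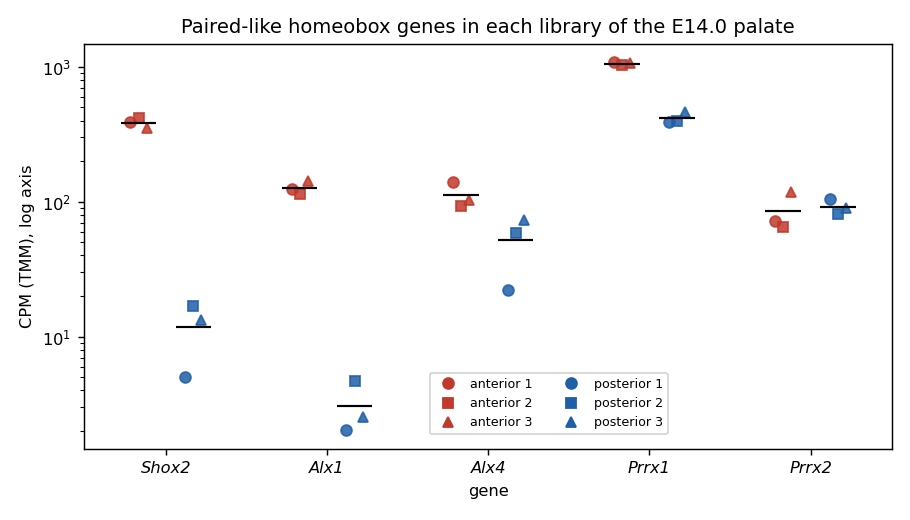
CPM of each gene in each library on a log axis (x axis: gene), with anterior libraries in red, posterior libraries in blue, 1 symbol per replicate number and a black line at each group mean. The regions are far apart for Shox2 and Alx1, closer for Prrx1 and Alx4, and overlap for Prrx2 (64.8 to 118.8 CPM in anterior and 80.9 to 104.3 CPM in posterior libraries).

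Shox2 (ENSMUSG00000027833.17, a protein-coding gene on the minus strand at chr3:66971727-66981771, GRCm38) had 5118, 5736 and 4089 counts in anterior replicates 1, 2 and 3, and 67, 234 and 193 counts in posterior replicates 1, 2 and 3. The posterior libraries thus kept between 1.30% and 4.38% of the mean anterior CPM, and every one of them was above the limit of a count of 0. Within the posterior palate, replicate 1 was the lowest at 5.02 CPM, with replicates 2 and 3 at 16.9 and 13.2 CPM. The fitted difference corresponded to a 32.9-fold higher level in the anterior palate (95% interval 17.4 to 62.3, edgeR adjusted p = 0.000526), the eighth largest toward the anterior among all genes tested. Against posterior replicate 1 alone the log2 fold change was -6.27, and without that library it was -4.68.

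Alx1 (ENSMUSG00000036602.15, minus strand, chr10:102998707-103030215), which is needed for the midface and the front of the skull, showed a pattern close to that of Shox2 at a lower level. It had 1641, 1577 and 1637 counts in the anterior libraries and 27, 65 and 37 counts in the posterior libraries, that is 127 ± 13.6 CPM against 3.08 ± 1.42 CPM (SD, n = 3). Posterior replicates 1, 2 and 3 kept 1.59%, 3.70% and 2.00% of the anterior mean. The anterior level was 41.0-fold higher (95% interval 26.1 to 64.4). Differences of at least 5 on the log2 scale toward the anterior palate, as in Shox2 and Alx1, were called in 0.0447% of the genes tested, or 7 genes. The log2 fold change of Alx1 was -5.97 against posterior replicate 1 alone and -5.13 without it.

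Prrx1 (ENSMUSG00000026586.17, minus strand, chr1:163245119-163313710), a regulator of mesenchymal progenitors in the head and limbs, had the most counts of the 5 genes in both regions. It had 14211, 14245 and 12235 counts in the anterior libraries and 5209, 5535 and 6715 in the posterior libraries. At 1058 ± 21.3 CPM against 417 ± 38.2 CPM (SD, n = 3), the spread within a region was small beside the difference, and the regions did not overlap. The anterior level was 2.54-fold higher (95% interval 2.13 to 3.03; log2 fold change -1.34, SE 0.11, edgeR adjusted p = 0.000604). Across 17 alternative fits its log2 fold change lay between -1.59 and -1.29 and passed the threshold in each. A call toward the anterior palate with a log2 fold change of at least 1 was made for 1.67% of the genes tested. Of the 8 mesenchyme markers, 4 (Twist1, Pdgfra, Col3a1 and Lum) were called higher in the posterior palate, the direction opposite to Prrx1, none was called higher in the anterior, and 4 did not pass the test. Over all genes tested, 4.87% were called toward the posterior and 2.59% toward the anterior. The part of the mesenchyme markers in the Prrx1 values was not tested.

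Alx4 (ENSMUSG00000040310.13, plus strand, chr2:93642384-93681339), a partner of Alx1 in skull and facial development, had 139.8, 93.6 and 103.5 CPM in the anterior libraries. In posterior replicates 1, 2 and 3 it had 22.1, 59.0 and 73.9 CPM, or 19.7%, 52.5% and 65.8% of the anterior mean. The regions did not overlap, but the posterior libraries differed more from each other than the anterior ones did. The log2 fold change was -1.12 (SE 0.39, 95% interval -2.04 to -0.20) with an edgeR adjusted p of 0.135, short of the threshold. How large the difference was depended on posterior replicate 1. Without this library the log2 fold change was -0.75 with an edgeR adjusted p of 0.00913, in a fit that called 21.1% of all genes toward the anterior palate. Against this library alone it was -2.35 with an edgeR adjusted p of 0.00219, where 3.75% of all genes were called toward the anterior palate, and a term for the libraries set apart above (3.21% of all genes called toward the anterior) gave the same value. Over all alternatives the adjusted p ran from 0.00152 to 0.356. DESeq2 on the same counts gave a log2 fold change of -1.13 and an adjusted p of 0.0217, beside 4.06% of all genes called toward the anterior palate. Summed markers of osteoblasts, in whose lineage Alx4 also acts, followed the same order in the posterior libraries (291, 501 and 1817 CPM in replicates 1, 2 and 3) but not in the anterior (3551, 2892 and 1959 CPM), with none of the 4 markers tested called and Bglap, a marker of mature osteoblasts, at 0 to 3 counts. Their part in the Alx4 values was not tested.

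Prrx2 (ENSMUSG00000039476.14, plus strand, chr2:30834972-30881251), the close paralog of Prrx1, had 947, 891 and 1373 counts in the anterior libraries and 1393, 1120 and 1300 counts in the posterior libraries. Its levels overlapped between the regions, with 85.1 ± 29.4 CPM against 91.4 ± 11.8 CPM (SD, n = 3). The log2 fold change was 0.10 with a 95% interval from -0.43 to 0.64 (edgeR adjusted p = 0.789), so that a difference of the size seen for Prrx1 lay outside the interval in the anterior direction. Its sign was not stable, at -0.062 without anterior replicate 2. Anterior replicate 3 was the highest library of all at 118.8 CPM, and the same library was the highest for the dental mesenchyme markers (314 summed CPM against 73.3 and 121 in the other anterior libraries), whose part in the Prrx2 level was not tested.

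Genes with different regional bias change their ratio within a library, which does not depend on the library's scaling. The ratio of Prrx1 to Prrx2 counts, on the log2 scale, was 3.91, 3.998 and 3.16 in the anterior libraries and 1.90, 2.30 and 2.37 in the posterior libraries. The ranges did not overlap, and the ratio was 2.82-fold higher in the anterior palate. Of the 10 pairs among the 5 genes, 8 had ratios that did not overlap between the regions. The pairs share genes, so they are not separate results, and the share among pairs of all genes was not computed. Among single genes tested, 28% did not overlap. The Alx4 to Prrx2 ranges nearly met, at -0.199 in anterior replicate 3 and -0.271 in posterior replicate 3. For each of the 8 pairs the exact permutation test over libraries gave p = 0.1, the smallest that 3 against 3 libraries allow. After adjustment over the 10 pairs it was 0.125, so that this design could not pass 0.05. The log2 ratio of Shox2 to Alx1 was 1.61 ± 0.273 in the anterior libraries and 1.83 ± 0.536 in the posterior ones (SD, n = 3), and these ranges overlapped (exact permutation p = 0.7, adjusted 0.778). For Alx4 and Prrx1 the log2 ratio was -3.26 ± 0.274 and -3.18 ± 0.833 (SD, n = 3), also with overlap, and the sign of the difference turned when anterior replicate 2, posterior replicate 2 or posterior replicate 3 was left out. The ratio of Shox2 to Prrx2 changed by -5.36 on the log2 scale between the regions and that of Alx1 to Prrx2 by -5.58, the largest of the 10 pairs.

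To compare levels between the genes, CPM was divided by the length of the gene's exons in kilobases. In the anterior palate Shox2 was highest on this scale at 116.7 ± 9.57 CPM per kilobase, followed by Prrx1 at 95.6 ± 1.93, Prrx2 at 43.4 ± 15.0, Alx1 at 22.1 ± 2.37 and Alx4 at 15.9 ± 3.45 (SD, n = 3). All 3 anterior libraries held this order. The ranges of neighbours in the order did not overlap, although the lowest Alx1 and the highest Alx4 values nearly met at 19.9 and 19.8 CPM per kilobase. This near tie depends on the length used. The longest coding transcript has 2689 bases against 5756 in all exons for Alx1, and 7056 against 7060 for Alx4. In the posterior palate the order was Prrx2 (46.6 ± 6.04), Prrx1 (37.7 ± 3.45), Alx4 (7.31 ± 3.77), Shox2 (3.54 ± 1.84) and Alx1 (0.536 ± 0.247 CPM per kilobase; SD, n = 3). Prrx2 and Prrx1 overlapped there, as did Alx4 and Shox2. The lead of Shox2 rested on the length used, because with the longest coding transcript in place of all exons Prrx1 led in the anterior palate at 162.0 CPM per kilobase against 125.5 for Shox2, and Prrx1 and Prrx2 stood at 63.9 and 63.5 in the posterior palate.

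**Figure D2:**
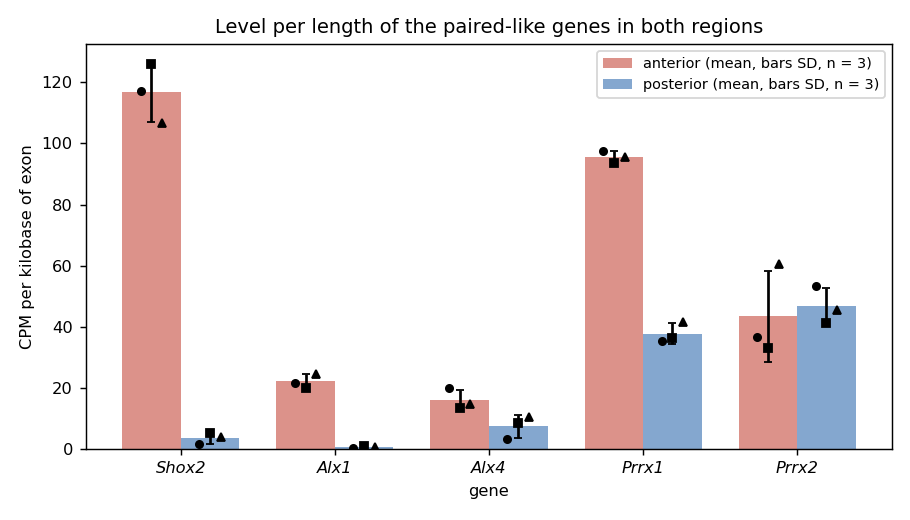
Level per kilobase of exon (CPM per kilobase, y axis from 0) of each gene (x axis), with bars at the mean of 3 libraries, error bars of 1 SD and a symbol for each library. Shox2 and Prrx1 are the tallest anterior bars (116.7 and 95.6), whereas Prrx2 and Prrx1 are the tallest posterior bars (46.6 and 37.7).

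Placed among the 15520 tested genes with a known length, Shox2 fell from the percentile 97.8 of levels per kilobase in the anterior to 39.7 in the posterior palate, and Alx1 from 84.4 to 9.94. Prrx1 moved from 97.2 to 91.8 and Alx4 from 78.3 to 58.1, while Prrx2 stood at 93.0 and 93.8. The summed level of the 5 genes was 294 ± 8.33 CPM per kilobase in the anterior libraries and 95.7 ± 5.51 in the posterior ones (SD, n = 3), a 3.07-fold difference with no overlap (exact permutation p = 0.1, the smallest possible). The make-up of this sum changed as well. Shox2 contributed 35.3% to 44.1% of it in the anterior libraries and 1.62% to 5.57% in the posterior libraries. Prrx2 contributed 11.6% to 20.04% in the anterior and 44.6% to 56.9% in the posterior libraries. The share of Prrx1 ranged from 31.6% to 33.3% in the anterior and from 37.7% to 40.8% in the posterior libraries, so that its share was higher in the region where its level was lower. The percentiles, the sum and the shares all use the length of all exons. With the longest coding transcript, Prrx1 and not Shox2 had the highest anterior level, so the shares depend on the length used.

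**Figure D3:**
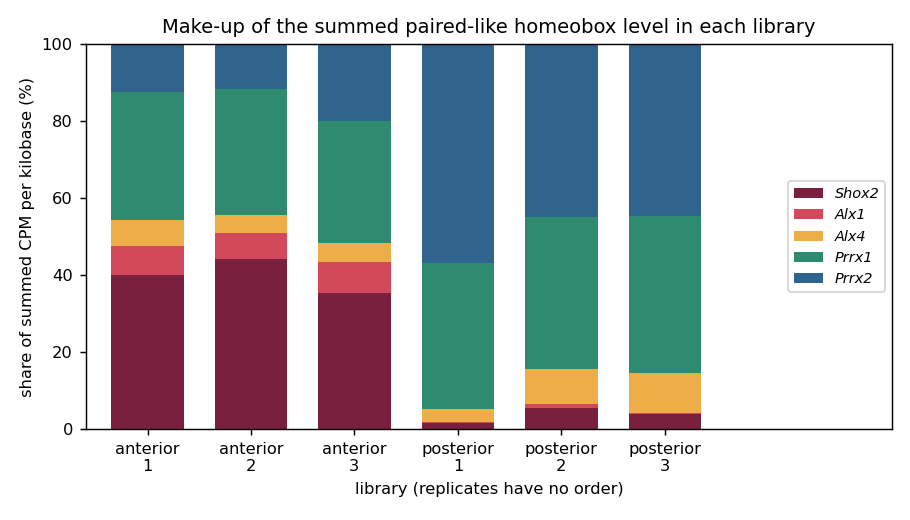
Share of each gene in the summed CPM per kilobase of the 5 genes (y axis, %), 1 stacked bar per library (x axis). The shares use the length of all exons and depend on that choice. Shox2 takes 35.3% to 44.1% of the anterior bars, and Prrx1 and Prrx2 fill most of the posterior bars.

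Sequences upstream of the RefSeq start (GRCm38.p6) were read for Shox2, Prrx1 and Prrx2, the members found in the promoter table, to set the anterior genes Shox2 and Prrx1 beside Prrx2, whose levels overlapped. Each runs 5′ to 3′ on the strand of the gene, from 250 to 71 bases before the start, and the capitals mark the homeodomain core TAAT on either strand. The Shox2 stretch is chr3:66981842-66982021 (minus strand), that of Prrx1 chr1:163313721-163313900 (minus strand) and that of Prrx2 chr2:30845117-30845296 (plus strand, inside the longer Prrx2 gene model of GENCODE M21).
Shox2: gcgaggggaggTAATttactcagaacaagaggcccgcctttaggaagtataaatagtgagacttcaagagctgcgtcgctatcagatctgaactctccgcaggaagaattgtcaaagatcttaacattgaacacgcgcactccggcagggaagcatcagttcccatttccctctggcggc
Prrx1: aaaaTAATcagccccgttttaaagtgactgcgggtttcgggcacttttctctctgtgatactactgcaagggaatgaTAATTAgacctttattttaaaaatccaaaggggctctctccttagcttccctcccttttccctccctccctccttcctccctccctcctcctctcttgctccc
Prrx2: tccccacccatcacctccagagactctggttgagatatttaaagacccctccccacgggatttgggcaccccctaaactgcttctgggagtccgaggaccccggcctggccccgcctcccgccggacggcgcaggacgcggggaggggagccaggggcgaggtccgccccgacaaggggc

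TAAT, searched on both strands, occurred once in the Shox2 stretch, beginning 239 bases before the start, and 3 times in that of Prrx1. Of the Prrx1 matches, 2 overlap in a single TAATTA, which begins 173 bases before the start. The Prrx2 stretch held no TAAT, and none of the 3 held TAATNNNATTA, the spaced repeat that pairs of these proteins bind. Among the 32851 promoters of the table, 47.7% held TAAT in the same window, 3.86% held TAATTA, which contains TAAT on both strands, and 0.365% held TAATNNNATTA. The GC content was 50% for Shox2, 47.8% for Prrx1 and 68.9% for Prrx2. These matches describe the letters in the windows and do not show binding.

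Reads opposite to the 5 genes were few. Counts on the strand opposite to each member ranged from 0 to 46 per library and were at most 3.70% of those on its own strand. Rsrc1, a splicing factor gene that runs in the opposite direction and overlaps 382 bases of the Shox2 gene, was itself called higher in the anterior palate, at 76.9 ± 5.09 against 51.5 ± 1.74 CPM (SD, n = 3; log2 fold change -0.58, edgeR adjusted p = 0.00987). Ext2, a heparan sulfate synthesis gene that overlaps Alx4 on the opposite strand, had 148 ± 0.907 and 164 ± 21.4 CPM (SD, n = 3) and was not called. Gm17028, a noncoding gene on the same strand as Alx1 that overlaps it by 737 bases, had 2, 4 and 4 counts in the anterior and none in the posterior libraries. These neighbours were chosen by their overlap after the files were seen.

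Among the remaining paired-like genes, calls were made in both directions. Of 27 other members of the class, 18 were under the low-count filter, 4 of which had no count in any library, and 9 were tested. Toward the anterior palate 1 of the 9 was called, and 3 were called toward the posterior, Gsc and Pitx3 among them, beside 2.59% and 4.87% of all genes tested. This balance turned to 3 anterior and 1 posterior without posterior replicate 1, and DESeq2 called 3 in each direction. The median log2 fold change of the 9 was -0.03, beside -0.0040 over all genes tested. Gsc, a gene of the jaw and pharyngeal arch mesenchyme, had 9.26, 6.11 and 7.35 CPM in the anterior and 21.9, 17.2 and 20.3 CPM in the posterior libraries (log2 fold change 1.39, SE 0.19, edgeR adjusted p = 0.00489).

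Pitx3, known from lens, midbrain neurons and skeletal muscle, had 0, 2 and 0 counts in the anterior and 63, 66 and 59 counts in the posterior libraries. All 7 skeletal muscle markers passed the test toward the posterior palate, beside 4.87% of all genes tested. They had 5.69 to 9.43 summed CPM in anterior and 524 to 953 in posterior libraries. Their part in the counts of Pitx3 and Pax7 (below) was not tested.

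Pitx1, which patterns the hindlimb and lower jaw, had a log2 fold change of -0.85 with an edgeR adjusted p of 0.0628, which ran from 0.000166 to 0.215 over the alternatives. Otx1 (0.28), Otx2 (-0.55) and Hopx (-0.03), a homeodomain protein that does not bind DNA, had log2 fold changes that did not pass the test, and those of Otx1 and Hopx changed sign against posterior replicate 1 alone. The genes that carry a paired box besides the homeobox split as well. Pax3, a neural crest and muscle progenitor gene, was called higher in the anterior palate with 30.04 ± 2.50 against 4.89 ± 2.31 CPM (SD, n = 3; log2 fold change -2.62, and -2.03 against posterior replicate 1 alone). Pax7, which marks muscle progenitors, was called higher in the posterior palate with 0.761 ± 0.462 against 5.11 ± 0.449 CPM (SD, n = 3). Pax6, an eye and nasal placode gene, had 38, 16 and 13 counts in the anterior and 0, 1 and 2 counts in the posterior libraries and was called higher in the anterior palate, a call lost without posterior replicate 2 (edgeR adjusted p = 0.0687). Pax4 had no counts.

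Shox2 acts in the anterior palate within a circuit of signals between epithelium and mesenchyme that includes Msx1, Bmp4, Shh, Fgf10 and Wnt5a. Of 13 genes listed for this circuit, 5 were called higher in the anterior palate, none higher in the posterior, and 8 were not called, where 2.59% and 4.87% of all genes tested were called in these directions. Their median log2 fold change was -0.43, beside -0.0040 over all genes. Msx1, a homeobox gene placed with Bmp4 upstream of Shh, had 1918, 2532 and 3265 counts in the anterior and 14, 19 and 15 counts in the posterior libraries. Its log2 fold change of -7.46 was larger than those of Shox2 and Alx1. Fgf10, a mesenchymal signal to the epithelium, had 29.7, 29.1 and 31.1 CPM against 12.6, 16.1 and 14.5 CPM (log2 fold change -1.06, SE 0.13, edgeR adjusted p = 0.00297). The secreted ligand Wnt5a had a log2 fold change of -0.84 (SE 0.12, edgeR adjusted p = 0.0070) and Shh, the epithelial signal, one of -1.27 (SE 0.24, edgeR adjusted p = 0.0196). The call of Shh was lost when anterior replicate 2 or 3 or posterior replicate 2 was left out, with adjusted p up to 0.0871. Tbx2 was called at a log2 fold change of -0.67 (edgeR adjusted p = 0.0368), but in 9 of 17 alternatives only. Bmp4, with 39.8 ± 10.1 against 47.2 ± 10.4 CPM (SD, n = 3), overlapped between the regions and was not called.

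The study's supplementary network, inferred on its single-cell data for the anterior trajectory, lists predicted targets of SHOX2, ALX1 and PRRX1. Of the 11 listed for SHOX2, 2 passed the test toward the anterior palate and 2 toward the posterior, with a median log2 fold change of -0.28. Over all genes tested the shares called were 2.59% and 4.87%, and the median was -0.0040. Prrx1 was among the anterior ones, and the posterior ones were Prickle1, of the planar cell polarity pathway, and Lingo2, which encodes a membrane protein. Of the 15 listed for ALX1, 4 were called higher in the anterior palate (Shox2, Lrfn5 and Efna5 among them) and 1 higher in the posterior (Lingo2), with a median of -0.13. Of the 10 listed for PRRX1, 3 were anterior (Shox2 and Efna5 among them) and 1 was posterior (Prickle1), with a median of -0.42. The lists share genes, so these counts are not separate. They also come from the same study as the libraries and are not independent of it. The network predicts positive regulation for some targets and negative regulation for others. The counts here do not split the targets by that sign, so they cannot test the predictions. The paper reports that most predicted SHOX2 targets changed in Shox2 knockout anterior palate, in the directions predicted. Lrfn5, a synaptic adhesion gene, had 24.9 ± 2.66 against 4.77 ± 0.403 CPM, and Efna5, an ephrin ligand, 138 ± 9.77 against 79.5 ± 9.07 CPM (SD, n = 3). Prickle1 had 54.0 ± 4.87 against 123 ± 26.5 CPM (SD, n = 3), and Lingo2 rose from 21 to 30 counts per anterior library to 63 to 97 counts per posterior library. The call of Lingo2 held in 11 of 17 alternatives, being lost without anterior replicate 1, anterior replicate 2, posterior replicate 2 or posterior replicate 3, with the term for the libraries set apart and against posterior replicate 1 alone (adjusted p up to 0.0785).

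Genes most like each member were sought by Pearson's r of log2 CPM over the 6 libraries, among genes with a mean of at least 10 CPM. The points share the split into regions, so that r is high for many genes that differ between them, and it is given as a description. Rspo1, a Wnt agonist (r = 0.997), Hey1, a Notch target (0.996), and Fgf10 (0.996) were most like Shox2. Prkch, a protein kinase C gene (0.998), Hey1 (0.997) and Fgf10 (0.996) were most like Alx1, so that Hey1 and Fgf10 were on both lists. Their own differences were smaller, at a log2 fold change of -1.36 for Hey1, -1.87 for Rspo1 and -0.50 for Prkch. Cpxm2, a carboxypeptidase-like gene (0.999), Lrfn5 (0.997) and the retinaldehyde reductase gene Dhrs3 (0.996) were most like Prrx1. Cpxm2 fell from 21.3 ± 0.326 CPM in the anterior to 1.97 ± 0.414 CPM in the posterior palate (SD, n = 3), a larger difference than that of Prrx1. The nearest genes to Alx4 were Iqsec2 (0.988), Selenbp1 (0.987) and Gnpnat1 (0.986), none of which was called between the regions. For Prrx2 the nearest were Igfbp2 (0.968), N4bp3 (0.967) and Tmem176a (0.964), also not called. Between members, r was 0.991 for Shox2 and Alx1 and 0.984 for Alx1 and Prrx1, and it was negative for Prrx2 with each of the other 4 genes (-0.396 to -0.251).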

How the data were processed

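Bulk RNA-seq libraries of the E14.0 palate (3 anterior, 3 posterior) were grouped by their tissue labels. What the authors deposited is a table of raw counts for every library, with unstranded and strand-wise numbers of reads on each Ensembl gene, in the layout that STAR writes. Mapping to mm10 with HISAT2, quantification with StringTie and testing with DESeq2 1.30.1 are described in the study's methods and the submitters' processing notes. The annotation release is not given in the sources used here. The reverse-strand counts, 18.95 to 23.1 times those of the other strand, were used, and reads without a gene (multimapping 5.94% to 8.77%, unmapped 2.71% to 4.65% of reads) stayed out. Symbols, positions and exon lengths came from GENCODE M21 (GRCm38), which paired 52073 of 56691 identifiers when versions were ignored, whereas 35 had the same version. Positions are therefore those of M21.

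The test was run in edgeR 4.0.16 on genes reaching 10 counts in 3 or more libraries (R 4.3.3; TMM, quasi-likelihood test, Benjamini-Hochberg adjustment over all 15673 genes, threshold 0.05), with region as the only term. Log2 fold changes are posterior over anterior. Within-library ratios used counts plus 0.5. Libraries of the same region varied beyond sampling noise (chi-square per gene 3.73 to 68.0). Alternatives were DESeq2 1.42.0, limma-voom (limma 3.58.1), RLE or no scaling, other low-count filters, unstranded counts, a replicate block, a transcript length correction, a term for the libraries parted by their share of multimapping reads (library-group term), and leaving out each library. The comparison with posterior replicate 1 alone was added after seeing the data. It estimates the same difference as the library-group term, which absorbs posterior replicates 2 and 3, so these 2 alternatives are not separate. The main fit and some of the alternatives were run on simulated counts with 200 changed genes and a common dispersion. The simulation held no split among the posterior libraries, so it does not cover that feature of these data.

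The genes and lists were chosen with earlier results of these data known. Named genes are the 5 members, the other paired-like and paired-box genes that passed the filter, called genes of the signalling and target lists (and Bmp4), the 3 genes most like each member, and cell type markers. Some genes of these lists are left out of the text. Promoter sequences came from RefSeq, where 3 of the 5 members matched.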

Additional observations from a re-analysis of the deposited data

How the results depend on the processing

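Shox2, Alx1 and Prrx1 kept their direction and passed the threshold in all 17 alternatives, with log2 fold changes of -6.27 to -4.68, -5.97 to -5.13 and -1.59 to -1.29. Alx4 passed it in 5 alternatives, with DESeq2 (-1.13), without a low-count filter (-1.12), with the library-group term (-2.35), against posterior replicate 1 alone (-2.35) and without that library (-0.75), and it lay between -1.46 and -0.93 in the other 12. Of these alternatives, the library-group term and the comparison with posterior replicate 1 alone estimate the same difference and are not separate. Leaving out 1 library gave Alx4 values of -1.46 to -0.75. Prrx2 passed it in none, and its sign turned without anterior replicate 1 (-0.0075) or 2 (-0.062), with a range of -0.062 to 0.42 when 1 library was left out. The cause was not tested for any of these changes.

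The number of genes called rose from 1169 to 1978 with DESeq2 (637 anterior, 1341 posterior) and to 2162 without a filter, which tests more genes (646 and 1516). Leaving out 1 library gave 498 to 7119 genes (140 to 3242 anterior, 312 to 3877 posterior), the highest without posterior replicate 1. Of the other paired-like genes, 8 were called without a filter (3 anterior, 5 posterior), 2 with at least 10 counts in every library (1 posterior), where 315 anterior and 528 posterior genes were called in all, and 2 against posterior replicate 1 alone (1 posterior), where 566 and 564 were called in all. DESeq2 called 3 anterior and the length correction 2, with 534 anterior and 836 posterior genes called in all by the latter. Leaving out 1 library gave 2 to 5 calls (1 to 3 anterior, 1 to 3 posterior), in part because Pitx3 fell under the filter whenever 1 posterior library was left out.

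No pairing by replicate number was seen, with deviations of same-numbered libraries correlated at -0.053, 0.045 and 0.036. These values cannot exclude a pairing. Posterior replicate 1 differed from replicates 2 and 3 by a chi-square per gene of 53.8 and 68.0, which would hide a smaller shared part. With the replicate block, 829 genes were called (237 anterior, 592 posterior), among them 2 other paired-like genes toward the anterior. The log2 fold changes of Shox2, Alx1, Alx4, Prrx1 and Prrx2 were then -5.15, -5.39, -1.23, -1.35 and 0.15, with no call changed; Pitx1 became called and Tbx2 was no longer called.

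With the longest coding transcript as length, Alx1 had 47.2 anterior and 1.15 posterior CPM per kilobase, Prrx1 162.0 and 63.9, and Prrx2 59.1 and 63.5. On unstranded counts anterior Prrx1 was 98.9. Hopx turned positive on unstranded counts (0.17), with the library-group term (0.25), with the length correction (0.11), against posterior replicate 1 alone (0.25) and without anterior replicate 1 or 3 or posterior replicate 2 or 3 (0.0035 to 0.090), and leaving out 1 library gave -0.18 to 0.090. Otx1 turned negative with the library-group term (-0.30) and against posterior replicate 1 alone (-0.30). The regional difference of Alx4 against Prrx1 turned to -0.030, -0.13 and -0.19 without anterior replicate 2, posterior replicate 2 and posterior replicate 3 (range with 1 library left out -0.19 to 0.56), and that of Shox2 against Alx1 to -0.040 without posterior replicate 3 (range -0.040 to 0.50). Pitx3 and Pax6 had few counts in one region, whereas the 5 members had at least 27 counts in every library. An effect of depth was not tested.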

Other observations

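Phox2a, a paired-like regulator of autonomic neurons that the low-count filter removed, was high in 1 library. It had 14, 161 and 2 counts in posterior replicates 1, 2 and 3 and at most 2 in each anterior library. The 4 neuron markers listed were also highest in posterior replicate 2, at 228 summed CPM, against 37.1 and 15.9 in the other posterior libraries and 33.2 to 39.3 in the anterior libraries, and their part in the Phox2a counts was not tested. This gene was chosen after its values were seen.

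Within the anterior palate, replicate 3 was the highest library for Prrx2 (118.8 CPM against 71.9 and 64.8), and also for the dental mesenchyme marker Tfap2b (117 CPM against 1.97 and 15.4). Shox2 was lowest in the same library, at 354 CPM against 388 and 417.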
